A study of Mus musculus with 24 samples.

Results

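The genes described here were the glutathione and antioxidant enzymes of the mouse mammary gland, a list of 41 genes: 17 glutathione transferases, 5 glutathione peroxidases, 4 genes of glutathione synthesis and reduction, 3 superoxide dismutases, catalase, 5 peroxiredoxins, and 6 genes of the thioredoxin system and its stress-response neighbours. They were chosen by name and function, with earlier results of these data known, and all 41 were found among the 37991 genes of the count table. Of these, 39 had enough reads to be tested, among 14918 tested genes in all. Gstm6 and Mgst2 fell below the filter and are given by their counts. RNA was sequenced from 24 mice. The PyMT group were F1 females heterozygous for the PyMT transgene, a viral oncogene that the MMTV promoter switches on in mammary epithelium, on the FVB background. The FVB group were age-matched homozygous FVB females without the transgene. Each genotype was sampled at week 6 (hyperplasia in PyMT), week 8 (adenoma/MIN), week 10 (early carcinoma) and week 12 (late carcinoma), with 3 mice in each of the 8 groups and each mouse sampled at 1 time point only. The transgene itself is not part of the mouse gene annotation and was not measured here. The PyMT tissue was lesion or tumour tissue of the mammary gland at each stage. The control tissue was whole mammary gland, which holds fat, vessels and connective tissue beside the epithelium. Some samples also held skeletal muscle RNA, whose source was not tested. In such bulk samples fewer cells of a type and less RNA per cell cannot be told apart.

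Glutathione is a small thiol that cells keep reduced at high concentration. It is built by glutamate-cysteine ligase (Gclc, Gclm) and glutathione synthetase (Gss), and it is returned to the reduced form by glutathione reductase (Gsr). Transferases attach it to reactive or foreign molecules, and peroxidases use it to reduce peroxides. Superoxide dismutases turn superoxide into hydrogen peroxide, which catalase, the peroxidases and the peroxiredoxins then remove. The peroxiredoxins are recharged by thioredoxin (Txn1) and its reductase (Txnrd1), while Txnip binds and inhibits thioredoxin. The transcription factor Nrf2 (gene Nfe2l2) induces many of these genes, Nqo1 among them, through antioxidant response elements.

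The coding sequences show how the peroxidases differ at their reactive residue. In Gpx1, Gpx3 and Gpx4 this residue is selenocysteine, which is written as a TGA codon inside the reading frame, whereas Gpx7 has an ordinary cysteine codon at the same place. The lines below give 45 coding bases of each from the GENCODE M1 transcripts, 5′ to 3′, with that codon in capitals. It was codon 47 in Gpx1, 73 in Gpx3, 129 in the longest Gpx4 transcript and 56 in Gpx7.
Gpx1: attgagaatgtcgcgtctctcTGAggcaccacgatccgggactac
Gpx3: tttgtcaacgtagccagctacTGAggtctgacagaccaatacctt
Gpx4: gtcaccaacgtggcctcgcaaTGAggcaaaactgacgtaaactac
Gpx7: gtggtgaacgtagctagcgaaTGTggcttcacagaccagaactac
The selenocysteine genes did not share a direction. Over all weeks Gpx3 and Gpx4 were lower in PyMT and Gpx1 was higher, with values given below.

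Total counts ran from 6969375 to 13516601 per library, with a median of 8280269.5. In 13 of the 24 libraries (6 PyMT and 7 FVB, including every PyMT library of week 6 and every FVB library of week 10) the number of genes plotted by count peaked at 8 to 25 reads rather than at the lowest counts, so that a low gene was either at 0 or near that packet of reads. Among genes with a middle abundance of 10 to 30 CPM, 4.40% were at 0 in FVB week 10 replicate 3 and 2.87% in PyMT week 8 replicate 2, against at most 0.211% in the 11 libraries without such a peak. Those 11 hold no PyMT library of week 6 and no FVB library of week 10. Values from them alone therefore compare the genotypes at weeks 8 and 12 only. Single values of low genes such as Gstm7, Gpx7 and Gsta3 are therefore coarser than their totals imply. The marker genes of other cell types differed widely between the genotypes. The summed normalized count of 8 adipocyte markers was 1014 to 15456 in PyMT against 46492 to 129895 in FVB, and each of the 8 was lower in PyMT over all weeks. All 5 endothelial and all 6 fibroblast markers were lower too, as were all 4 tested erythroid markers, with sums of 5 markers from 339.8 to 1805 in PyMT against 1759 to 9518 in FVB. Of 6 basal markers, 3 were called lower, with sums of 1159.8 to 5475 and 2491 to 10701. Among the epithelial markers 7 of 9 were higher, with sums from 21668 to 41048 in PyMT against 4487 to 19960 in FVB. All 10 skeletal muscle markers were lower in PyMT, with sums of 0 to 36133 there and 82.8 to 643647 in FVB. The muscle sum passed 100000 in 4 FVB libraries (replicates 1 and 2 of week 6, replicate 3 of week 10 and replicate 1 of week 12). The sum of 6 macrophage markers overlapped between the genotypes, and the 6 lymphocyte markers were too low to test, with sums of at most 97.1. The part of these other cells in the results below was not tested, apart from values given without particular libraries.

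**Figure D1:**
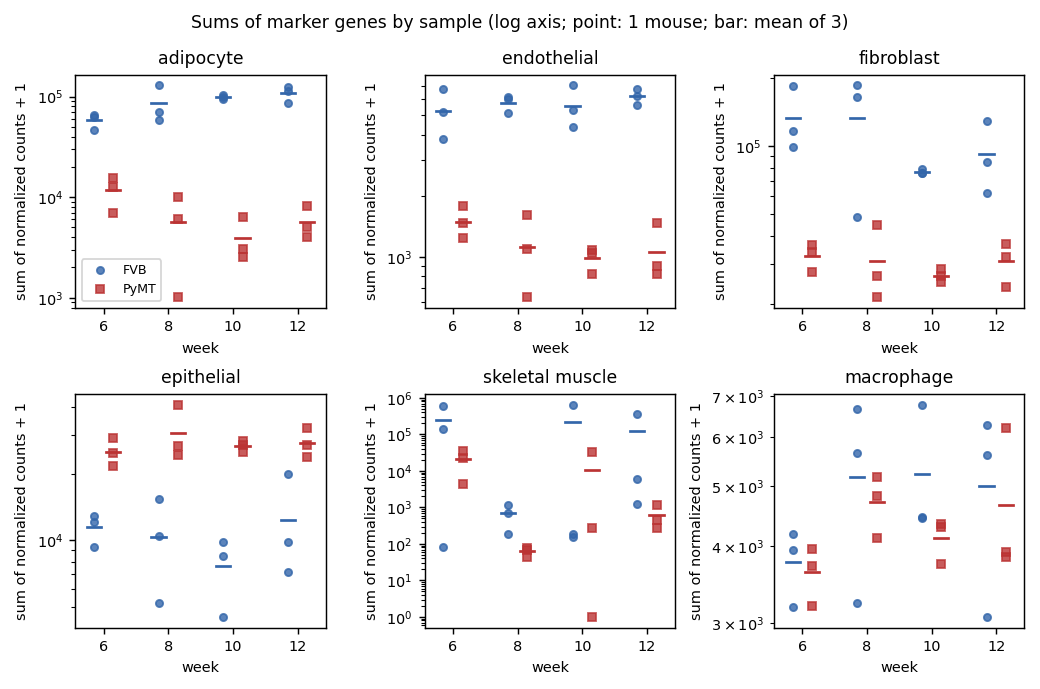
Sums of normalized counts of marker genes (log axis, 1 added) by week for 6 cell types, with 1 point per mouse and a bar at the mean of 3 mice. The adipocyte sums of the 12 PyMT samples lay between 1014 and 15456 and those of the 12 FVB samples between 46492 and 129895, with no overlap, whereas the skeletal muscle sums spread widely within the FVB samples.

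To learn which of these enzymes differed between the PyMT lesions and control glands, PyMT and FVB mice of the same age were contrasted in edgeR with its quasi-likelihood test, and p-values were adjusted over all 14918 genes by the Benjamini-Hochberg method. A gene was called a DEG when the adjusted p was under 0.05 and the fold change above 2. At week 6, 5 of the 39 members were called lower and none higher, where 6.46% of all genes were called lower and 3.58% higher. At week 8, 5 were called lower and 2 higher (6.37% and 3.57% of all genes). At week 10, 10 were called lower and 1 higher (9.09% and 4.83% of all genes). At week 12, 14 were called lower and 2 higher (13.0% and 7.75% of all genes). In a fit of all 24 samples with week as a factor, 15 members were called lower and 2 higher, against 17.2% and 8.51% of all genes. The median log2 fold change of the 39 members in that fit was -0.64, and that of all tested genes was -0.03. Gpx3, Gstz1 and Sod3 were called at all 4 weeks, and Gstm1, Gstm2, Cat and Nqo1 at 3 of them, while 24 of the 41 members were called at none.

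**Figure D2:**
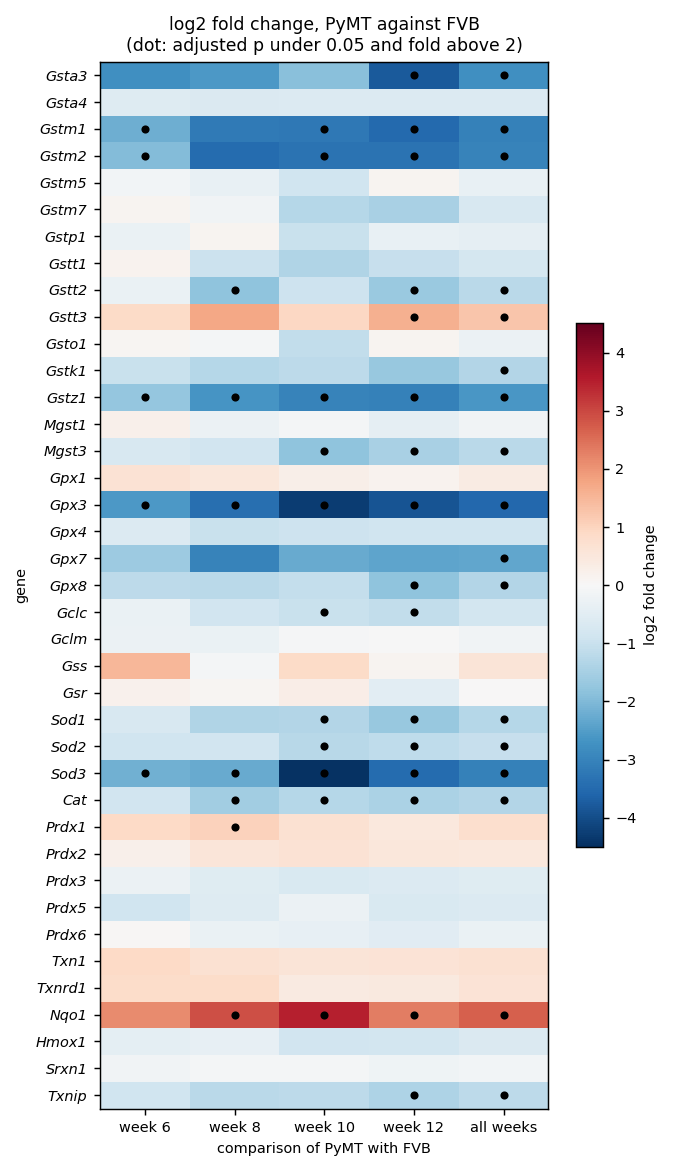
Log2 fold changes of PyMT against FVB (colour; blue is lower and red higher in PyMT) for the 39 tested members in rows, at each week and over all weeks in columns; a dot marks an adjusted p under 0.05 with a fold change above 2. Gpx3, Gstz1 and Sod3 carry a dot in every column, Nqo1 is the deepest red row, and the called members were mostly lower, 15 against 2 over all weeks.

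The levels of the members, set side by side as normalized counts per kilobase of exon, spanned a wide range. In FVB the highest median belonged to Txnip at 4490 per kilobase, followed by the microsomal transferase Mgst1 at 1836, Gstz1 at 1678, Gpx1 at 1422, Cat at 1387, Sod1 at 1247 and Gpx3 at 1162. In PyMT the order at the top was Gpx1 at 1978, Txnip at 1932, Mgst1 at 1825, Prdx1 at 967 and Cat at 617. The first 3 of that order differed by less than their spread over samples. Gstz1 and Gpx3, both near the top in FVB, had PyMT medians of 240 and 73.7 per kilobase. Gstm6 was at 0 in all 12 PyMT libraries and reached at most 12.1 normalized counts in FVB. Mgst2 reached at most 17.2 in PyMT, where 8 of 12 libraries were at 0, and at most 53.8 in FVB.

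**Figure D3:**
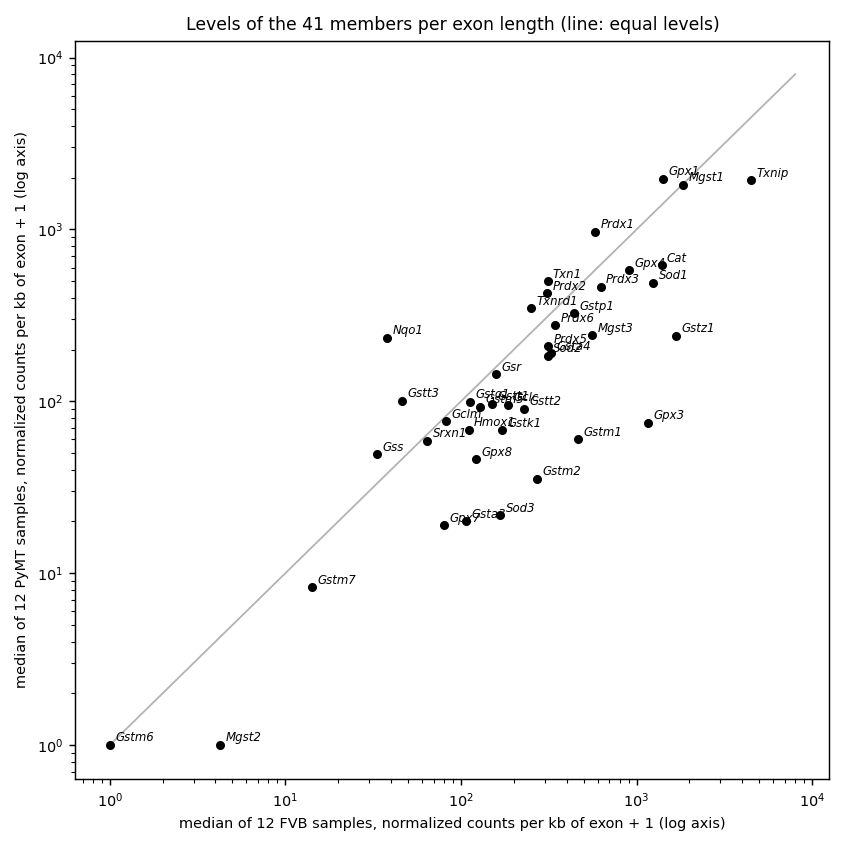
Median level of each of the 41 members over the 12 FVB samples (horizontal) and the 12 PyMT samples (vertical), as normalized counts per kilobase of exon with 1 added, on log axes; the grey line marks equal levels. Gpx3, Gstz1, Gstm1 and Sod3 lie far below the line and Nqo1 far above it, while Mgst1 lies on it.

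The glutathione transferases, the family with the most tested genes, held the largest group of lower members. Over all weeks 7 of the 15 tested transferases were called lower and 1, Gstt3, was called higher, against 17.2% and 8.51% of all genes. Their summed level per kilobase was 4753 to 9597 in FVB and 2525 to 4025 in PyMT. Gstz1, which isomerises maleylacetoacetate in the breakdown of tyrosine, had the smallest adjusted p of them. In FVB its normalized counts in replicates 1, 2 and 3 were 1897, 1728 and 1906 (week 6), 4378, 1648 and 1861 (week 8), 2807, 2868 and 3840.3 (week 10) and 4064, 2751 and 3731 (week 12). In PyMT they were 387, 691 and 576, 375, 488 and 392, 358, 428 and 355 and 486, 402 and 357 at the same weeks. The highest PyMT sample stood well under the lowest FVB sample at every week. The log2 fold change was -1.75 ± 0.23 (SE) at week 6 and -3.04 ± 0.22 at week 12, and -2.62 ± 0.18 over all weeks, a 6.17-fold lower level (edgeR, adjusted p = 3.0e-11, the smallest of any member). The gene lies at chr12:88488668-88505673 (mm9) and shares 127 exon bases with Pomt2 on the opposite strand.

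The mu-class transferases Gstm1 and Gstm2, which conjugate electrophiles such as aromatic epoxides, were lower by a similar size. In FVB the normalized counts of Gstm1 were 868, 205 and 432 (week 6), 855, 619 and 605 (week 8), 669, 351 and 1585 (week 10) and 1057, 409.6 and 952 (week 12). In PyMT they were 49.0, 152 and 127, 114, 0 and 105, 86.3, 23.1 and 156 and 57.6, 69.4 and 78.5. All PyMT samples lay below all FVB samples, and the lowest was PyMT week 8 replicate 2, where Gstm1 was at 0, Gstm2 at 0.938 and the adipocyte marker sum was also at its lowest. Counts in that library came in packets near 23 reads, and 2.87% of its genes of middle abundance were at 0. Gstm2 ran from 253 to 640 in FVB and from 0.938 to 101 in PyMT. Over all weeks the log2 fold change was -3.04 ± 0.43 for Gstm1 (adjusted p = 2.4e-06) and -3.02 ± 0.37 for Gstm2 (adjusted p = 3.1e-07). Both were called at weeks 6, 10 and 12. At week 8 they were -3.20 ± 1.07 and -3.46 ± 0.94 and missed the threshold (adjusted p = 0.095 and 0.054). The week 6 call of Gstm1 was lost under 10 of 15 alternatives, though its direction was not. Neither of the other tested mu-class genes passed. Gstm5 was -0.32 ± 0.19 (adjusted p = 0.17) and Gstm7 was -0.72 ± 0.69 (adjusted p = 0.41). Gstm5 made up 48.2% of the summed mu-class level per kilobase in the median PyMT sample and 13.2% in the median FVB sample, whereas Gstm1 made up 29.95% and 55.9%. Some mu-class genes share exon sequence. Of the 50-base windows of Gstm1 exons, 12.7% also occur in Gstm3, Gstm2-ps1 or Gstm2, and 4.98% of those of Gstm2 in Gm6665 or Gstm1. Part of the reads of Gstm1 and Gstm2 therefore cannot be placed on 1 gene. No window of Gstm5 was shared, and 0.414% of those of Gstm7 were.

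Gsta3, an alpha-class transferase, ran from 87.0 to 332 normalized counts in FVB and from 0 to 43.9 in PyMT, with a log2 fold change of -2.75 ± 0.52 (adjusted p = 0.0001). Its groups did not overlap at any week, yet week 12 alone was called. Smaller falls were called over all weeks for the mitochondrial Gstk1 (-1.32 ± 0.31), the microsomal Mgst3 (-1.23 ± 0.18) and the theta-class Gstt2 (-1.20 ± 0.21). In these 3 the samples of the genotypes overlapped when weeks were pooled. With scaling by library size alone their fold changes dropped under 2, as did those of Sod1, Sod2, Cat and Txnip. Mgst1, the most abundant transferase, stood at 2027 to 4118 in PyMT and 3007 to 5027 in FVB, with a log2 fold change of -0.15 ± 0.12 (adjusted p = 0.3). It made up 50.4% of the summed transferase level in the median PyMT sample and 28.5% in the median FVB sample. Gstp1 was -0.39 ± 0.19 (adjusted p = 0.086), but 67.5% of its exon windows are identical in Gstp2. Gsto1, of the omega class, was -0.26 ± 0.22. Gsta4, which detoxifies hydroxynonenal, and Gstt1 passed the adjusted p alone, at -0.62 ± 0.22 and -0.80 ± 0.27. Without the 4 muscle-rich FVB libraries Gsta4 stood at -0.46 (adjusted p = 0.13).

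Gstt3, a theta-class neighbour of Gstt1 on chromosome 10, was the exception among the transferases. It stood at 152, 116 and 122, 10.1, 98.9 and 164, 124, 247 and 1.56 and 130.5, 54.2 and 97.3 normalized counts in FVB at weeks 6, 8, 10 and 12. In PyMT it stood at 181, 246 and 277, 287, 422 and 199.97, 307, 146 and 233 and 181, 341 and 309.6. The groups overlapped at week 10 only, and its lowest value fell in FVB week 10 replicate 3, the library with the most genes at 0. The log2 fold change was 1.26 ± 0.39 over all weeks (adjusted p = 0.0094) and 1.61 ± 0.40 at week 12 (adjusted p = 0.018). Under 5 of 15 alternatives the latter call was lost, among them the removal of PyMT replicate 2 or 3 or of FVB replicate 3. Its exons share 524 bases with the gene RP23-333M15.8 on the same strand.

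Among the glutathione peroxidases, 3 of 5 were called lower over all weeks and the others stood on opposite sides of 0. Gpx3 is the secreted plasma form. In FVB its normalized counts were 2646, 952 and 1007 (week 6), 3507, 819 and 623 (week 8), 1073, 1568 and 4696 (week 10) and 4192, 3737 and 2829 (week 12). In PyMT they were 162, 287 and 323, 295, 59.1 and 112, 132, 135 and 97.2 and 451, 125 and 132. The FVB values varied several-fold between mice, but the lowest of them still exceeded the highest PyMT value. Gpx3 had the largest fold change of the 39 tested members over all weeks, -3.54 ± 0.38 or 11.7-fold lower (adjusted p = 3.1e-08), and it was called at each week, from -2.58 ± 0.46 at week 6 to -4.27 ± 0.56 at week 10. Its week 8 call was lost under 6 of 15 alternatives. Without the 4 muscle-rich FVB libraries the value over all weeks was -3.29. The gene lies at chr11:54715955-54723879 (mm9).

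Gpx7 and Gpx8, peroxidases of the endoplasmic reticulum, were also lower. Gpx7 ran from 72.6 to 229 normalized counts in FVB and from 0 to 51.1 in PyMT (-2.32 ± 0.49, adjusted p = 0.00032), without overlap at any week and without a call at a single week. Gpx8 ran from 54.8 to 180 in FVB and from 24.9 to 104 in PyMT (-1.33 ± 0.24, adjusted p = 4.8e-05). Gpx4, which reduces lipid hydroperoxides in membranes, passed the adjusted p with less than a 2-fold change, at -0.88 ± 0.16 (adjusted p = 7.9e-05). Gpx1, the main cytosolic form, was higher by 0.38 ± 0.10 (adjusted p = 0.0017), with samples of 1206 to 1978 in PyMT and 1028 to 1690 in FVB. In the 11 libraries without a packet of reads Gpx1 was at 0.08 (adjusted p = 0.70). Gpx1 made up 71.8% of the summed peroxidase level in the median PyMT sample and 39.7% in the median FVB sample, against 3.02% and 27.3% for Gpx3.

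**Figure D4:**
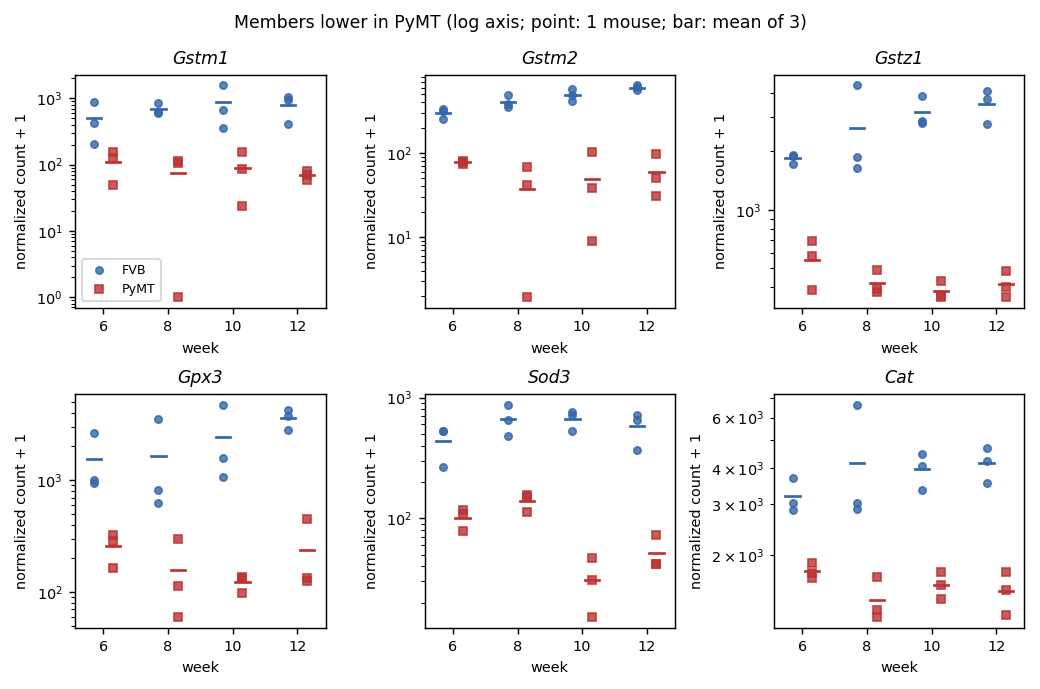
Normalized counts (log axis, 1 added) by week of 6 members that were lower in PyMT, with 1 point per mouse, blue circles for FVB and red squares for PyMT, and a bar at the mean of 3 mice. In each of the 6 genes all 12 PyMT samples lay below all 12 FVB samples, and the 0 of Gstm1 is PyMT week 8 replicate 2.

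All 3 superoxide dismutases were called lower over all weeks. Sod3 is the extracellular form, bound to the matrix around cells and vessels. In FVB its normalized counts were 532, 263 and 524 (week 6), 657, 480.3 and 869 (week 8), 765, 710.4 and 526 (week 10) and 724, 369 and 656 (week 12). In PyMT they were 107, 117 and 77.2, 112, 154 and 149, 14.2, 46.1 and 29.9 and 41.1, 40.6 and 71.2. The PyMT samples of weeks 10 and 12 were all below those of weeks 6 and 8. For weeks 6, 8, 10 and 12 the log2 fold changes were -2.15 ± 0.35, -2.26 ± 0.29, -4.43 ± 0.45 and -3.46 ± 0.36, with -3.04 ± 0.28 over all weeks (adjusted p = 2.7e-09). The change of this difference from week 6 to week 12 was -1.33 ± 0.52 and did not pass (adjusted p = 0.97).

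Sod1, the cytosolic copper and zinc form, ran from 530 to 1189 in FVB and from 134 to 467 in PyMT without overlap (-1.29 ± 0.16, adjusted p = 3.4e-07). It was called at weeks 10 and 12. Sod2, the mitochondrial manganese form, was -1.05 ± 0.21 (adjusted p = 0.00022). Its highest FVB values were 2549, 2388, 2563 and 2296, in week 6 replicate 1, week 8 replicate 1, week 10 replicate 3 and week 12 replicate 1. Among them week 8 replicate 1 alone was low in muscle markers, with a sum of 701. The remaining muscle-rich library, FVB week 6 replicate 2 (sum 141359), had Sod2 at 1197, near the FVB median of 1190. Without the 4 muscle-rich libraries Sod2 stood at -0.65 (adjusted p = 0.0079), under a 2-fold change. Its call over all weeks was lost under 11 of 34 alternatives. Among these were the replicate block (-0.90) and the 11 libraries without a packet of reads (-0.79, comparing the genotypes at weeks 8 and 12 only). The removal of any 1 of 5 libraries also ended it (the 4 with the highest FVB values, and PyMT week 10 replicate 2). Catalase (Cat), the peroxisomal enzyme that splits hydrogen peroxide, ran from 2874 to 6645 in FVB and from 1216 to 1875 in PyMT. No PyMT sample reached the lowest FVB sample. Its log2 fold change was -1.30 ± 0.13 (adjusted p = 1.0e-08), with calls at weeks 8, 10 and 12 and a value of -0.88 ± 0.18 at week 6. The week 8 call was lost under 5 of 15 alternatives, which include the removal of any PyMT replicate or of FVB replicate 2. With library-size scaling Cat stood at -0.99 over all weeks and Sod1 at -0.97.

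Of the genes that make and recycle glutathione, none was called over all weeks. Gclc, the catalytic subunit of glutamate-cysteine ligase, passed the adjusted p over all weeks at -0.83 ± 0.18 (adjusted p = 0.00046) and was called at week 10 (-1.01 ± 0.28) and week 12 (-1.10 ± 0.19). The week 10 call was lost under 11 of 15 alternatives. Its regulatory partner Gclm stood at 253 to 456 normalized counts in PyMT and 272 to 661 in FVB, a log2 fold change of -0.17 ± 0.11 (adjusted p = 0.2). Gsr stood at 332 to 600 and 259 to 710, with 0.02 ± 0.13 (adjusted p = 0.93). Gss was 0.58 ± 0.23 (adjusted p = 0.038), a value that missed the threshold under 14 of 33 alternatives, and its exons overlap 3 genes on the opposite strand.

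The peroxiredoxins split by member. Prdx1, the abundant cytosolic peroxiredoxin, was higher in all 12 PyMT samples than in any FVB sample. In FVB its normalized counts were 1766, 2040.1 and 1670.4 (week 6), 1764, 1368 and 1416 (week 8), 1752, 1942 and 1919 (week 10) and 2131, 2166 and 1727 (week 12). In PyMT they were 3654, 3352 and 3209, 3014, 3576 and 2619, 2934, 2951 and 2845 and 2562, 2903 and 2543. The difference was 0.76 ± 0.09 on the log2 scale or 1.69-fold (adjusted p = 8.2e-08), and it was called at week 8 alone (1.03 ± 0.20). That call was lost under 5 of 15 alternatives, which include the removal of PyMT replicate 1 or 2 or of FVB replicate 2 or 3. Of the exon windows of Prdx1, 7.85% also occur in Gm7204. Prdx2, its cytosolic relative, was higher by 0.47 ± 0.09 (adjusted p = 9.4e-05), with 177 exon bases shared with Rnaseh2a on the opposite strand. Prdx5 was lower, at -0.63 ± 0.13 (adjusted p = 0.00026), with 409 exon bases shared with Trmt112 on the opposite strand. The mitochondrial Prdx3 was -0.53 ± 0.19 (adjusted p = 0.021) and -0.23 (adjusted p = 0.34) without the muscle-rich FVB libraries. Prdx6 was -0.29 ± 0.12 (adjusted p = 0.049) and missed the threshold under 24 of 33 alternatives. Prdx1 made up 40.9% of the summed peroxiredoxin level per kilobase in the median PyMT sample and 27.4% in the median FVB sample, while the sum itself overlapped, at 2153 to 2834 in PyMT and 1594 to 2964 in FVB.

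In the thioredoxin system Txn1 and Txnrd1 were higher and the inhibitor Txnip was lower. Txn1 stood at 325 to 711 normalized counts in PyMT and 244 to 464 in FVB (0.68 ± 0.12, adjusted p = 2.8e-05). Txnrd1 stood at 1146 to 2125 and 705 to 1267 (0.62 ± 0.11, adjusted p = 8.4e-05). Neither reached a 2-fold change, and in the 11 libraries without a packet of reads Txn1 was at 0.37 (adjusted p = 0.17). Those 11 libraries compare the genotypes at weeks 8 and 12 only. Txnip ran from 8642 to 20970 in FVB and from 3335 to 9756 in PyMT, where PyMT week 10 replicate 3 and PyMT week 8 replicate 2 alone exceeded the lowest FVB sample. Its log2 fold change was -1.19 ± 0.16 (adjusted p = 1.7e-06), and week 12 was called (-1.40 ± 0.19). With library-size scaling it stood at -0.87 over all weeks. Its exons share 606 bases with Gm15441 on the opposite strand.

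Nqo1, the quinone reductase that serves as a classic readout of Nrf2, rose the most of all members. In FVB its normalized counts were 104, 23.1 and 38.8 (week 6), 71.9, 16.3 and 56.5 (week 8), 18.7, 58.1 and 29.7 (week 10) and 75.3, 134 and 73.3 (week 12). In PyMT they were 163, 250.3 and 309, 358, 366 and 343, 394, 304 and 450.4 and 426, 546 and 385. Every PyMT sample was above every FVB sample. At week 6 the log2 fold change of 2.12 ± 0.60 missed the threshold (adjusted p = 0.057). The values of the later weeks, 2.89 ± 0.52, 3.49 ± 0.49 and 2.31 ± 0.31, were all called. Over all weeks it was 2.68 ± 0.28, or 6.42-fold higher (adjusted p = 1.8e-08), and 2.79 without the muscle-rich FVB libraries. The gene lies at chr8:109912125-109927106 (mm9). Neither of the other stress-response members was higher. Srxn1, which repairs overoxidised peroxiredoxins, was -0.14 ± 0.19 (adjusted p = 0.57). Hmox1, which degrades haem, was -0.64 ± 0.27 (adjusted p = 0.049), a value that missed the threshold under 19 of 33 alternatives.

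**Figure D5:**
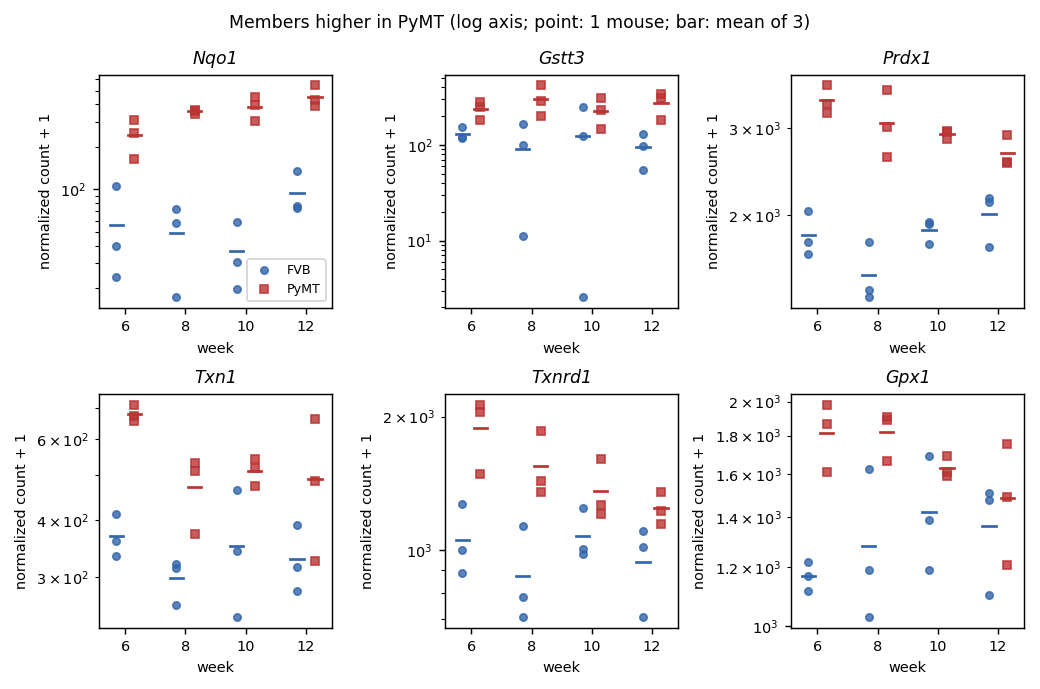
Normalized counts (log axis, 1 added) by week of 6 members that were higher in PyMT over all weeks, drawn with 1 point per mouse, blue circles for FVB, red squares for PyMT and a bar at the mean of 3 mice. Nqo1 and Prdx1 show no overlap between the 12 PyMT and 12 FVB samples, whereas Gstt3, Txn1, Txnrd1 and Gpx1 overlap.

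Separation of the groups was common among the members but also among all genes. The PyMT and FVB samples of 23 of 39 members did not overlap at week 6 (36.6% of all genes). Later the count was 25 in week 8 (40.2%), 24 in week 10 (40.5%) and 26 in week 12 (46.7%). Across the 12 against 12 samples of all weeks, 11 members did not overlap, 9 of them lower and 2 higher, where 11.9% of all genes did not. The 9 were Gsta3, Gstm1, Gstm2, Gstz1, Gpx3, Gpx7, Sod1, Sod3 and Cat, and the 2 were Prdx1 and Nqo1. At an adjusted p under 0.05 of any fold, 31 of 39 members passed over all weeks, 23 lower and 8 higher, against 51.1% of all genes (27.5% lower and 23.6% higher).

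The time points were compared within each genotype and between them to learn whether the differences grew with tumour stage. In the fit of all 24 samples no member passed, and no gene of the 14918 passed, for week 12 against week 6 in PyMT, for the same contrast in FVB, or for the growth of the genotype difference between those weeks. These shares of 0% became 6.73%, 4.19% and 4.63% at an unadjusted p under 0.05 in edgeR, or 1004, 625 and 691 genes, with 4, 4 and 7 members among them. DESeq2 called 114, 21 and 11 genes, none of them a member. With limma voom 36 genes were called higher and 19 lower in PyMT, and 73 and 14 in FVB. Members were among the 73, with their number given in the last section. A fit of the 6 PyMT samples alone called 26 genes higher and 39 lower. The numbers of members called at weeks 6 and 12, 5 and 16, are therefore not shown to differ gene by gene. The widest member values for the change were Gstm7 at -1.62 ± 1.98 and Gstt2 at -1.41 ± 0.49, the latter from -0.28 ± 0.44 at week 6 to -1.68 ± 0.27 at week 12. Between weeks 6 and 12 the FVB samples did not overlap in 6 members, all higher at week 12 (11.8% of all genes did not overlap), and the PyMT samples did not overlap in 9, of which 8 were lower (16.2% of all genes). In FVB, Gstt2 stood at 147, 115 and 160.3 at week 6 and 401, 360.4 and 343 at week 12, and in PyMT at 133, 157 and 61.3 and 80.2, 115 and 138.

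The upstream regulators and neighbouring pathways were read from lists of genes outside the 41. Of 12 tested regulators and targets of Nrf2, none was called higher over all weeks and 1 lower, the aldo-keto reductase Akr1b8 (-2.27 ± 0.45, adjusted p = 0.00017). Nfe2l2, which encodes Nrf2, stood at -0.74 ± 0.18 (adjusted p = 0.0012) and its inhibitor Keap1 at -0.05 ± 0.12 (adjusted p = 0.76). Bach1, a repressor of Nrf2 target genes, stood at -0.33 ± 0.11 (adjusted p = 0.012). All 9 tested genes of NADPH supply, which provides the electrons for Gsr and Txnrd1, were read as well, and 5 were called lower and none higher. Those with the smallest adjusted p were G6pdx, the entry enzyme of the pentose phosphate pathway (-1.57 ± 0.14, adjusted p = 1.5e-09), and the cytosolic isocitrate dehydrogenase Idh1 (-1.15 ± 0.13, adjusted p = 7.5e-08).

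Of 15 tested genes of glutathione supply and turnover, 2 were called higher and 7 lower. The higher ones were the cell-surface peptidases Anpep (1.56 ± 0.11, adjusted p = 6.1e-11) and Ggt1 (1.53 ± 0.27, adjusted p = 4.1e-05), which cleave extracellular peptides and glutathione. The lower ones with the smallest adjusted p were the dipeptidase Dpep1 (-2.95 ± 0.28, adjusted p = 3.8e-09) and the glutathione conjugate exporter Abcc1 (-1.52 ± 0.15, adjusted p = 1.1e-08). Of 17 other thiol redox genes, 2 were called higher and 4 lower. Prdx4, the peroxiredoxin of the endoplasmic reticulum, was higher (1.34 ± 0.21, adjusted p = 8.2e-06) and so was glutaredoxin Glrx (1.11 ± 0.33, adjusted p = 0.0071), while the methionine sulfoxide reductase Msrb3 (-2.01 ± 0.15, adjusted p = 7.3e-11) and Sesn1 (-1.003 ± 0.13, adjusted p = 6.8e-07) were lower.

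Of 6 tested genes among 15 further transferases and peroxidases, 1 was called higher, Gstcd (1.001 ± 0.19, adjusted p = 0.0001), and 3 lower, with the prostaglandin E synthase Ptges (-1.14 ± 0.19, adjusted p = 2.3e-05) and the leukotriene C4 synthase Ltc4s (-3.38 ± 0.63, adjusted p = 7.9e-05) first. Of 9 genes of haem and iron handling, 2 were called higher and none lower. These were the transferrin receptor Tfrc (2.11 ± 0.16, adjusted p = 1.2e-10) and ceruloplasmin (Cp, 1.57 ± 0.17, adjusted p = 5.2e-08). Of 6 partners and relatives of Txnip, the arrestin Arrdc3 was higher (1.06 ± 0.13, adjusted p = 2.9e-07) and Mlxipl, which encodes the glucose-responsive factor ChREBP, was lower (-3.28 ± 0.41, adjusted p = 4.0e-07). The shares called among all genes, 8.51% higher and 17.2% lower, are the background to these counts.

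The promoters of the members were searched for the letters TGACNNNGC, the core of the antioxidant response element, on both strands of the 250 bases before the start site in RefSeq (GRCm38.p6). A sequence was given for 34 of the 41 members. The letters occurred in 8 of these 34 (23.5%) and in 3112 of 27025 genes (11.5%). The 8 were Gsta3, Gstm5, Gstm7, Gclm, Prdx1, Mgst1, Txnrd1 and Sod1. The lines below show 60 bases around the letters for 4 members whose values differed in direction, 5′ to 3′ on the gene's strand, with the letters in capitals. Where the capitals read GCNNNGTCA, the core lies on the other strand. The mm9 positions come from an exact match of the RefSeq bases to that genome.
Gsta3 (mm9, chr1:21230519-21230578, plus strand): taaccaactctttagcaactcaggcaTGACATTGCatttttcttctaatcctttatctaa
Prdx1 (mm9, chr4:116358045-116358104, plus strand): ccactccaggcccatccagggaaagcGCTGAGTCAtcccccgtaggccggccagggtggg
Gclm (mm9, chr3:121948315-121948374, plus strand): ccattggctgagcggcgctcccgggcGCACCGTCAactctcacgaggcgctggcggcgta
Sod1 (mm9, chr16:90220925-90220984, plus strand): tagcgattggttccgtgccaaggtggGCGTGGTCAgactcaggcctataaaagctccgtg
Over all weeks these 4 genes stood at -2.75 ± 0.52, 0.76 ± 0.09, -0.17 ± 0.11 and -1.29 ± 0.16. A match of these letters is a description of the sequence and not a site of binding.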

How the data were processed

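Each of 24 mice gave 1 directional library depleted of ribosomal RNA. Alignment to mm9 (GSNAP) and counting by Ensembl gene (HTSeq) were done by the authors, and the deposited values are raw counts, not normalized. The strand setting of the counting is not given in the sources used here. Groups came from the sample labels. Every count column belonged to 1 sample. Replicates differed by a chi-square per gene of 19.6 to 222.6 over 24 pairs, so none was a copy.

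The tools were edgeR 4.0.16, limma 3.58.1 and DESeq2 1.42.0 under R 4.3.3, beside Python 3.11.15. Genes reaching 1 CPM in 12 or more libraries were tested by edgeR's quasi-likelihood test with TMM scaling and Benjamini-Hochberg adjustment. The SE of a log2 fold change was derived from the F statistic (absolute value divided by root F). A normalized count is a count over DESeq2's size factor, and levels per kilobase use the exon length in GENCODE M1. The p-values measure the spread between mice. The precision of low genes is limited by total counts and, in 13 libraries, by counts that come in packets.

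The members and all gene lists were chosen with earlier results of these data known. Any member could be named, as could Prdx4, Nfe2l2, Keap1 and Bach1, and, in each other list, the 2 called genes of each direction that had the smallest adjusted p. The Nrf2 list had 14 names, of which 13 were matched. Alternatives covered scaling, the filter, other tests, the replicate block, single libraries, packets of reads and muscle-rich libraries, the last 2 added after seeing the data. Protein sequences were not used here, so coding sequences and exon windows of 50 bases stand in for them. The windows were searched among protein-coding transcripts of GENCODE M1 alone, so shared sequence in other transcripts was not covered.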

Additional observations from a re-analysis of the deposited data

Results flagged for a closer look

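Mgst1, the most abundant transferase, was the one member whose 3 PyMT samples all lay above the 3 FVB samples at one week and all below them at another. Its log2 fold change was 0.23 at week 6 and -0.42 at week 12. Neither week passed the test (edgeR, adjusted p = 0.46 and 0.10), and the change between them, -0.67 ± 0.31 (SE), did not pass either (adjusted p = 1.0).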

How the results depend on the processing

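Over all weeks the 15 members called lower became 8 with scaling by library size alone and 8 in a test against a fold change of 2, which also left 1 of the 2 called higher. Over all genes the latter test called 609 higher and 1612 lower. Under library-size scaling the median over all genes went, on the log2 scale, from -0.03 to 0.26 and the calls from 1269 higher and 2571 lower to 2050 and 2002. Under it Gsto1 (0.023), Mgst1 (0.16), Gclm (0.10), Prdx6 (0.016) and Srxn1 (0.20) changed sign, none with a passing adjusted p. In the 11 libraries without packets Gclm (0.017) and Gsr (-0.0306) changed sign, and without the muscle-rich FVB libraries Gsr (-0.0306) and Srxn1 (0.15). Leaving out 1 library in turn moved Gsr between -0.0345 and 0.0861, below 0 without any of 4 libraries. Each of the 2 exclusions left 14 members lower and 2 higher. Over all genes 1195 were called higher and 2183 lower in the libraries without packets, and 1253 and 2217 without the muscle-rich libraries.

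At week 6, 0 members were called higher, 4 with library-size scaling, 2 each with DESeq2, no filter, limma voom, the fit of 24 samples and division by packet size. The 5 lower became 3 in the fit of 24 samples and 1 in the test against a 2-fold change. Over all genes the higher calls went from 534 to 779, 744, 592, 623, 555 and 579 in that order. The lower calls over all genes went from 964 to 1209 and 250. At week 8, 5 lower became 11 with DESeq2 and the fit of 24 samples, 9 with no filter, 12 with voom and packet division, and 2 in the 2-fold test, which left 0 higher. Lower calls over all genes were 951 in the main test, 1648 with DESeq2, 1374 in the fit of 24 samples and 1331 with no filter. They were 1593 with voom, 1724 with packet division and 236 in the 2-fold test. That test took the higher calls over all genes from 533 to 108. At week 10, 10 lower became 6 with library-size scaling and 3 in the 2-fold test, and 1 higher became 2 with voom. Over all genes 1356 lower became 956 and 657, and 720 higher became 943. At week 12, 14 lower became 8 and 2 higher became 1 in the 2-fold test, and 1 was higher in the fit of 24 samples. Over all genes 1936 lower became 953 and 1156 higher became 410 in the 2-fold test, and 828 were higher in the fit of 24 samples. For FVB week 12 against week 6, voom called 3 members higher, against 0. Of all 14918 genes it called 73 higher, against 0. The cause was not tested.

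Leaving out 1 library in turn gave 0 to 1 higher and 4 to 5 lower at week 6, 0 to 3 and 2 to 7 at week 8, 1 and 7 to 9 at week 10, 1 to 2 and 13 to 17 at week 12, and 2 and 14 to 15 over all weeks. Over all genes it gave 323 to 582 higher and 534 to 1024 lower at week 6, and 194 to 604 and 319 to 910 at week 8. The ranges were 376 to 958 and 886 to 1412 at week 10, and 775 to 1342 and 1414 to 2096 at week 12. Over all weeks they were 1218 to 1321 and 2454 to 2589. At week 8 the lowest counts came without PyMT replicate 1. Same-numbered PyMT and FVB samples correlated in their deviations at -0.03 to 0.18, over 0.1 in 4 of 12 pairs, and samples with other numbers at -0.133 to 0.091. Of the 12 PyMT samples, 6 correlated best with their own number. The labels do not say that a number marks a shared litter or batch, so the numbers were not taken as pairs. With the number as a replicate block the calls were 1 higher and 4 lower at week 6, 2 and 6 at week 8, 1 and 10 at week 10, 2 and 13 at week 12, and 2 and 14 over all weeks. The block ended the calls of Sod2 over all weeks and at week 12, of Gstm1 at week 6 and of Gclc at week 10. Of 39 weekly calls 14 were lost without some 1 library; those given by no count in the report were Gstt2 at week 8 (any of PyMT replicates 1 and 3 and FVB replicate 2), Nqo1 at week 8 (PyMT replicate 1), Gstm1 at week 10 (PyMT replicates 1 and 2, FVB replicate 1), Gstm2 at week 10 (PyMT replicate 3, FVB replicate 1), Sod2 at week 10 (each PyMT replicate, FVB replicate 3) and week 12 (PyMT replicates 1 and 2, FVB replicate 1), and Gsta3 (PyMT replicate 3) and Gclc (PyMT replicate 1) at week 12.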
